A study of Mus musculus with 6 samples.

Results

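The glycolysis and hypoxia-inducible genes were followed in mouse bone marrow mesenchymal stem cells (BMSCs), plastic-adherent stroma of the marrow with the capacity to become osteoblasts, adipocytes or chondrocytes. The 38 members were chosen by gene symbol from textbook knowledge of glycolysis and of the response to low oxygen. Earlier results of these data were known when the members and the further lists were chosen. Their counts and medians beside all genes are therefore descriptions, not tests. All 38 members had a row among the 22984 genes of the table. They comprised 26 genes of glucose uptake, glycolysis and lactate handling, 4 genes of the hypoxia-inducible factor (HIF) system and 8 other targets of HIF. Messenger RNA was sequenced in 6 libraries, 3 with the genotype Grx2+/+ (wild type) and 3 with Grx2-/- (knockout). Grx2 is glutaredoxin 2, a mostly mitochondrial enzyme that reduces protein disulfides and glutathionylated proteins, and its gene symbol is Glrx2. Both groups are O-BMSCs in the design text, a prefix that is left unexplained. Strain, age, sex, passage, culture oxygen and the construct of the knockout are not stated in the sources used here. Nothing says whether the 3 replicates of a genotype came from separate animals or cultures, so each p-value reflects only how these 6 libraries scatter, which may be technical.

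Glycolysis splits glucose into pyruvate in the cytosol, and lactate dehydrogenase can then turn pyruvate into lactate, which leaves the cell through monocarboxylate transporters. When oxygen is low, the alpha subunits HIF-1α and HIF-2α escape hydroxylation by prolyl hydroxylases, pair with a constitutive beta subunit and bind the core letters ACGTG or GCGTG near their targets. Many glycolytic genes, the kinases that hold pyruvate out of mitochondria, and some of the prolyl hydroxylases themselves are such targets. Bone marrow stroma lives at low oxygen, and glycolysis is a main source of energy in osteoblast-lineage cells.

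Values are FPKM, fragments scaled by gene length and library depth. Comparisons between genes and sums over genes depend on the gene lengths used, which are not stated in the sources used here. Log2 fold changes are given with their SE for knockout minus wild type in log2(FPKM + 1), a scale that shrinks the changes of genes of low level, and a gene is said to have risen or fallen where the Benjamini-Hochberg adjusted p over all 11083 genes tested (mean FPKM of at least 1, limma with trend, two-sided) was under 0.05. All 38 members passed the filter. The depth worked back from the values was 40797879 to 41794919 reads per library. The 3 wild type libraries held 3.57, 3.74 and 3.54 FPKM of Glrx2 and the 3 knockout libraries 0.00461, 0 and 0, as the labels say. The libraries also differed in the markers of other cells. The summed FPKM of 6 neutrophil markers was 872 to 2540 in wild type and 1.81 to 2.11 in knockout, and that of 5 endothelial markers 15.3 to 18.3 and 0.938 to 1.09. All 10 tested markers of these 2 kinds were lower in knockout, but they passed the filter mostly through their wild type levels. Tek, the endothelial marker below the filter, was higher in knockout (mean 0.265 FPKM in wild type and 0.609 in knockout). All 5 macrophage markers were higher in knockout (summed FPKM 1310 to 1444 in wild type and 2241 to 3024 in knockout). Of the stromal markers, 1 was higher and 4 lower of 6, and of the tested osteoblast markers all 4 were lower (246.7 to 273.9 against 10.8 to 13.3 for the 5 listed). Among these, Ibsp (mean 107 FPKM in wild type and 0.487 in knockout) passed the filter through its wild type level. Bglap, the osteoblast marker below the filter, had means of 0.136 FPKM in wild type and 0.22 in knockout. Of all genes tested, 24.6% were lower and 42.7% higher in knockout. Skeletal muscle markers summed to 5.37, 46.2 and 17.3 FPKM in the wild type libraries and to 2.69 to 4.4 in knockout, with 2 of the 3 tested lower. Erythroid and lymphocyte markers summed to under 1 FPKM in every library, and Hba-a2, Hbb-bt, Ms4a1 and Cd3g stayed below 0.1 FPKM in all 6. The part of these other cells in the results below was not tested, and in bulk RNA fewer cells of a type and less RNA per cell cannot be told apart.

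Promoter windows show where the HIF core letters stand in the genes that the results turn on. RefSeq windows of 300 bases (250 before to 50 after a start site, build GRCm38.p6) were matched by symbol for 35 of the 38 members, and those of Slc2a3, Epas1 and Ndrg1 were not used. The windows of Bnip3 (chr7:138909457-138909756, minus strand), Egln3 (chr12:54203825-54204124, minus strand), Slc16a3 (chr11:120948817-120949116, plus strand) and Hk2 (chr6:82774405-82774704, minus strand) are shown because these genes fell in knockout cells, and that of Adm (chr7:110627407-110627706, plus strand) because it rose. Each is written 5′ to 3′ on the gene's strand, and capitals mark ACGTG or GCGTG on either strand, which reads CACGT or CACGC where the core lies on the opposite strand.
Bnip3: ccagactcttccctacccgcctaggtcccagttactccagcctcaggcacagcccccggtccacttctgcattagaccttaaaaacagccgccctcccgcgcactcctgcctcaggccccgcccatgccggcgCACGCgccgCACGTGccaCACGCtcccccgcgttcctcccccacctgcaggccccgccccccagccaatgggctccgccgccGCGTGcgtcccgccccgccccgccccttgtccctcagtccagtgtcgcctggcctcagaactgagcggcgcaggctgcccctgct
Egln3: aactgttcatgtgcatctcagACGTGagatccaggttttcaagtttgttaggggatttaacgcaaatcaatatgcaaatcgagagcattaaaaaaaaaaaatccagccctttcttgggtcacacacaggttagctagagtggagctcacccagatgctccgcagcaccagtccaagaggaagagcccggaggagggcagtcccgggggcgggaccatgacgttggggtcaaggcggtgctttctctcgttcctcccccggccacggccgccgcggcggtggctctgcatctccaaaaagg
Slc16a3: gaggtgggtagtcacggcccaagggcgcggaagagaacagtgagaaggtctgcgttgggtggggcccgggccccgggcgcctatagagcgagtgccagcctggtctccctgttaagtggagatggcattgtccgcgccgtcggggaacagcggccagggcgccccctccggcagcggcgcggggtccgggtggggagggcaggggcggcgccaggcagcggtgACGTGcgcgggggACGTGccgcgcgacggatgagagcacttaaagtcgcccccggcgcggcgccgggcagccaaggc
Hk2: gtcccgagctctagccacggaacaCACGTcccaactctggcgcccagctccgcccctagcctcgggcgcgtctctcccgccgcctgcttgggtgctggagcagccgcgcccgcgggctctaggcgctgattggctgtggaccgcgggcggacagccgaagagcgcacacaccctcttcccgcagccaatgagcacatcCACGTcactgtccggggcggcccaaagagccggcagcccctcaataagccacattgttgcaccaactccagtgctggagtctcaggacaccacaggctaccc
Adm: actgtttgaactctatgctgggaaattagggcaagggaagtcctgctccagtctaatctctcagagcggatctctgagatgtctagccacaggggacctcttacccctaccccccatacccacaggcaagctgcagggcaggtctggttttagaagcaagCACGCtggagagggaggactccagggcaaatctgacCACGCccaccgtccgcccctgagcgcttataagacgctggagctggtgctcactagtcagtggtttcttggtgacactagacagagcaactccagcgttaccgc
In Bnip3 the core stood at 4 places, of which 1 is CACGTG, a palindrome that holds ACGTG on both strands and is also the E-box bound by other factors. Slc16a3, Hk2 and Adm had 2 places each and Egln3 had 1. The Slc16a3 cores began 27 and 14 bases before the start site, those of Adm 90 and 54 bases before it and that of Egln3 229 bases before it. So the fallen and the risen gene both carried the letters, with no separation between them in this window. Of the 35 members with a window, 32 (91.4%) had the core in at least 1 window, against 68.9% of the 8923 tested genes with a window, and 25 (71.4%) had a window with at least 2 places, against 35.2%. These shares take the best window of each gene, and members had more windows per gene (57 for 35 genes, against 11349 for 8923). By window, 80.7% of the members' 57 windows held the core, against 62.9% of the windows of tested genes and 43.8% of all 32851 windows of this length. The median GC content was 63.3% in the members' windows and 61.3% in those of tested genes. Eno2, Gpi1 and Tpi1 had no match in these windows. A match is a run of letters, not a measured binding site.

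The comparison asked how the levels of these genes differed between Grx2-/- and Grx2+/+ libraries. Glycolysis genes were mostly lower in knockout cells: of 26 members, 16 fell, 6 rose and 4 did not pass. The HIF alpha subunits Hif1a and Epas1 and the prolyl hydroxylases Egln1 and Egln3 all fell (4 of 4), and so did 7 of the 8 other targets, while Adm rose. The background was wide, because 67.4% of all genes tested passed, 24.6% lower and 42.7% higher in knockout. In total 27 members fell (71.05% of 38) and 7 rose (18.4%). The median log2 fold change was -0.27 for the glycolysis members, -0.85 for the HIF genes and -0.76 for the other targets, beside 0.09 over all genes tested. With quantile normalization the median of all genes moved to -0.03 and the split of all calls from 4737 higher and 2728 lower to 3413 higher and 3945 lower, and with median-of-ratios scaling to 3699 and 3670. Relative to all genes, the 3 medians were -0.35, -0.94 and -0.85 as deposited and -0.29, -0.94 and -0.86 with quantile normalization. The groups did not overlap for 23 of the 26 glycolysis members, all 4 HIF genes and all 8 other targets, beside 73.1% of all genes tested. Lower with no overlap were 28 members and higher 7, beside 27.4% and 45.7% of all genes tested.

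**Figure D1:**
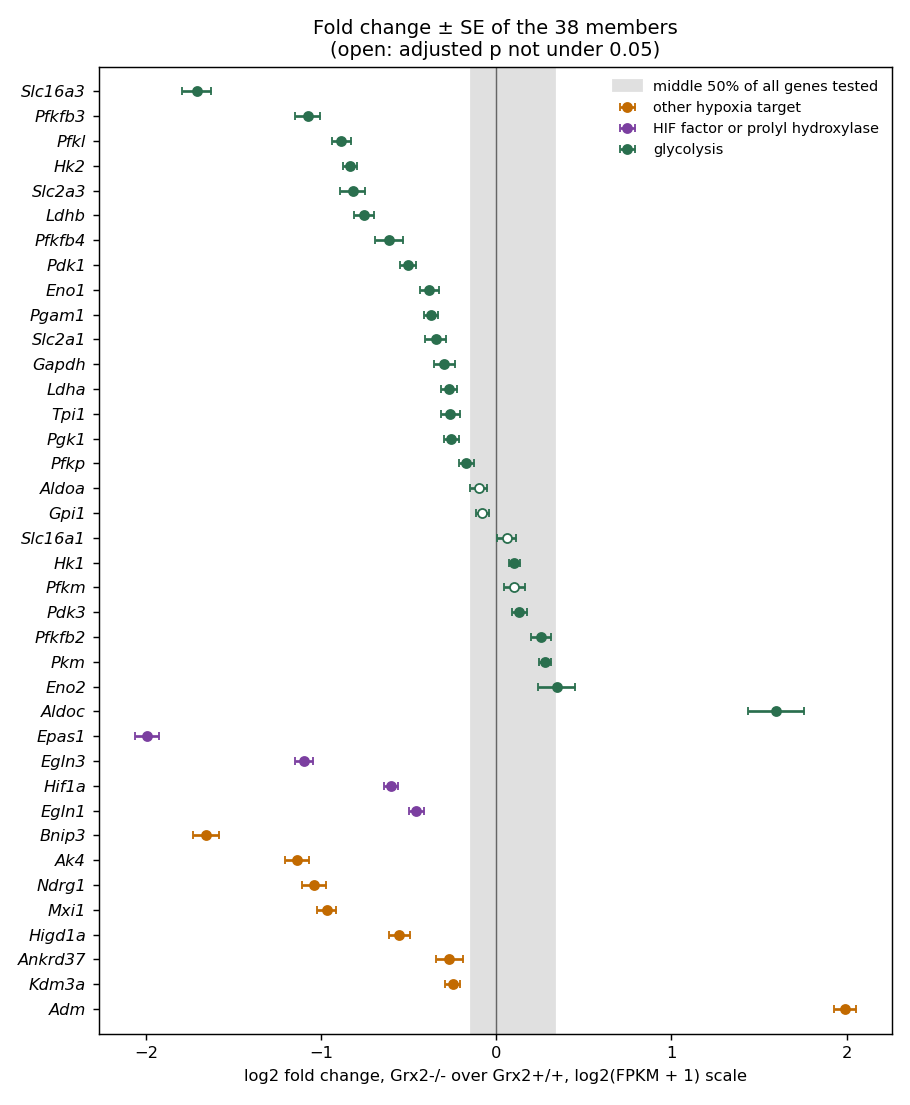
Log2 fold change ± SE (x axis, knockout minus wild type in log2(FPKM + 1), n = 3 libraries per group) of each of the 38 members (y axis), by class, with open points for the 4 that did not pass and a grey band for the middle 50% of all genes tested. Most points lie left of 0, with Epas1 (-1.998), Slc16a3 (-1.71) and Bnip3 (-1.66) lowest and Adm (1.99) and Aldoc (1.60) highest.

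Transcripts of both glucose transporters among the members were lower in knockout. Slc2a1, the main glucose transporter GLUT1, was at 49.4, 46.1 and 50.3 FPKM in wild type libraries 1, 2 and 3 and at 34.8, 40.2 and 39.3 in knockout libraries 1, 2 and 3 (the order kept below), a fall of 21.6% in the mean (log2 fold change -0.35 ± 0.06, adjusted p = 0.00118). Slc2a3, the high-affinity transporter GLUT3, was far lower in level, at 2.05, 2.45 and 2.02 FPKM in wild type and 0.73, 0.808 and 0.84 in knockout (-0.82 ± 0.071, adjusted p = 2.2e-05). Neither gene's groups overlapped. Of the other glucose transporters listed, Slc2a8 rose from 3.29 to 4.71 FPKM and Slc2a6 from 0.773 to 1.54 FPKM, both named after their values were seen. The next step is hexokinase, which traps glucose as glucose-6-phosphate. Hk2, the inducible isozyme whose promoter is shown above, was at 14.2, 14.5 and 14.5 FPKM in wild type and 7.35, 7.63 and 7.86 in knockout (-0.84 ± 0.042, adjusted p = 9.17e-07). Hk1, the constitutive isozyme, was at 28.7 to 29.4 FPKM in wild type and 30.7 to 31.9 in knockout (0.10 ± 0.033, adjusted p = 0.0243), but its difference was -0.03 with quantile normalization and 0.0029 with median-of-ratios scaling, so its direction depends on the scaling. The call of Hk1 was also lost without knockout replicate 2 (adjusted p = 0.0533), without wild type replicate 1, 2 or 3 (0.0522, 0.0603 and 0.0675) and without both wild type replicate 2 and knockout replicate 1 (0.0725), within a range of 0.0142 to 0.946 over its 15 alternatives. Gpi1, which turns glucose-6-phosphate into fructose-6-phosphate, did not pass (164, 161 and 162 FPKM against 146, 160 and 155), with a 95% interval of the log2 fold change from -0.17 to 0.0092. It passed, as lower, without knockout replicate 2 (-0.11, adjusted p = 0.0401) and with either other scaling (adjusted p of 0.00571 to 0.225 over the alternatives).

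Levels were also lower at the commitment step of glycolysis and in its allosteric control. Phosphofructokinase 1 has 3 subunit genes, and Pfkl, the liver-type subunit, was the most abundant of them, at 72.1, 65.2 and 69.7 FPKM in wild type and 34.6, 38.04 and 38.1 in knockout (-0.89 ± 0.052, adjusted p = 2.35e-06). Pfkp, the platelet type, fell less, from 18.8 ± 0.85 to 16.6 ± 0.264 FPKM (SD, n = 3; -0.17 ± 0.043). Pfkm, the muscle type, did not pass (10.4 ± 0.749 against 11.2 ± 0.513, interval -0.036 to 0.24), and its groups overlapped. The Pfkfb enzymes make and remove fructose-2,6-bisphosphate, the strongest activator of phosphofructokinase 1. Pfkfb3, the isozyme with the greatest excess of kinase over phosphatase activity, was at 10.04, 9.52 and 9.53 FPKM in wild type and 4.54, 3.62 and 4.06 in knockout (-1.08 ± 0.07, adjusted p = 4.15e-06). Pfkfb4 fell as well, from 4.24 ± 0.408 to 2.42 ± 0.25 FPKM (-0.61 ± 0.079). Pfkfb2 moved the other way and rose, from 1.63, 1.83 and 1.67 FPKM to 2.32, 2.17 and 2.23 (0.26 ± 0.057, adjusted p = 0.00446).

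The abundant enzymes of the middle and lower pathway were lower by smaller steps. Eno1, the main enolase and the most abundant member by FPKM, was at 875, 849 and 861 FPKM in wild type and 605, 704 and 677 in knockout (-0.38 ± 0.055, adjusted p = 0.000408). Pgk1, phosphoglycerate kinase, went from 535.8 ± 14.9 to 448 ± 22.4 FPKM (-0.26 ± 0.044), Tpi1, triose phosphate isomerase, from 448 ± 21.7 to 373 ± 23.7 (-0.26 ± 0.055) and Pgam1, phosphoglycerate mutase, from 225 ± 8.08 to 174 ± 7.15 (-0.37 ± 0.042). Gapdh, the dehydrogenase often used as a reference gene, was lower by 18.7%, at 99.3, 96.9 and 99.95 FPKM in wild type and 73.8, 87.6 and 79.5 in knockout (-0.30 ± 0.058, adjusted p = 0.00225). These 5 fell with no overlap of the groups, and each was lowest in knockout replicate 1. Aldoa, the main aldolase, did not pass: 524, 505 and 520 FPKM in wild type stood beside 448, 508 and 490 in knockout (interval -0.21 to 0.011). Without knockout replicate 2 it passed as lower (-0.14, adjusted p = 0.0288, range 0.0101 to 0.215 over the alternatives).

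Against that direction, the minor isozymes Aldoc and Eno2 and the last enzyme of the pathway were higher. Pkm, pyruvate kinase, rose from 256, 268 and 258 FPKM to 305, 323 and 320 (0.28 ± 0.035, adjusted p = 0.000206), and the table gives no split between its splice forms. Aldoc, the brain-type aldolase, rose from 1.09, 1.42 and 1.11 FPKM to 4.11, 7.14 and 6.1 (1.60 ± 0.16, adjusted p = 4.71e-05), a ratio of means of 4.79. Knockout replicate 1 was the lowest of the 3 for Aldoc, as it was for the abundant enzymes, although Aldoc moved the opposite way. Eno2, the neuronal enolase, was at 1.13, 0.944 and 1.2 FPKM in wild type and 2.07, 1.33 and 1.59 in knockout (0.34 ± 0.11, adjusted p = 0.0199). Its call was lost with no filter (adjusted p = 0.0635), with quantile normalization (0.0662), without wild type replicate 2 (0.0633, log2 fold change 0.29) and without both wild type replicate 2 and knockout replicate 1 (0.0649, log2 fold change 0.18), within a range of 0.00713 to 0.0662 over its alternatives. Among the most abundant members the order by FPKM shifted. By FPKM, Eno1 was the most abundant in both genotypes. Ldha was above Pkm in all 3 wild type libraries, with a Pkm to Ldha ratio of FPKM of 0.875, 0.938 and 0.892, and below it in all 3 knockout libraries (1.36, 1.28 and 1.32). Aldoa was below Pgk1 in every wild type library and above it in every knockout library by FPKM. The means were 516 and 535.8 FPKM in wild type and 482 and 448 in knockout. These orders depend on the gene lengths used. By reads worked back from the values, Pkm stood above Eno1 and Ldha, and Aldoa above Pgk1, in every library. In wild type library 1, Pkm had 80401 reads, Eno1 71606 and Ldha 63866.

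**Figure D2:**
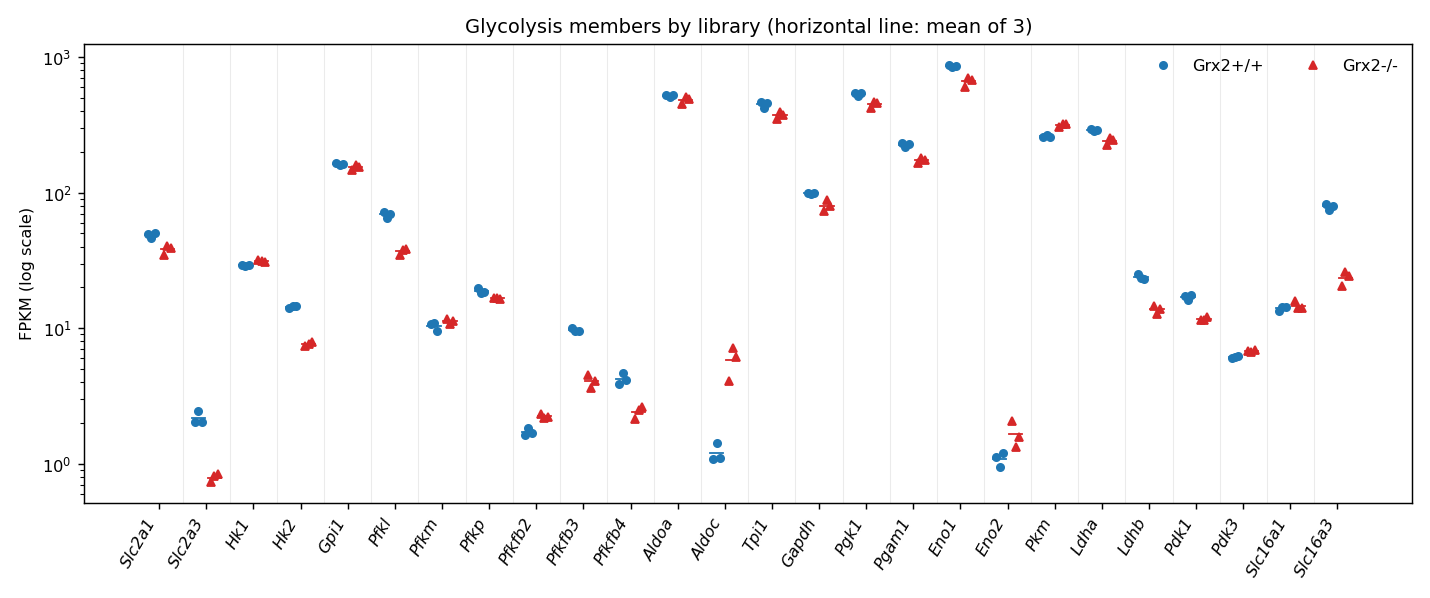
FPKM (y axis, log scale) of the 26 glycolysis members (x axis, in pathway order) in each of 3 wild type libraries (circles) and 3 knockout libraries (triangles), with a line at each mean. Slc16a3, Pfkl, Hk2 and Pfkfb3 separate widely, while Gpi1, Pfkm, Aldoa and Slc16a1 did not pass.

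Lactate handling held the widest fall among the glycolysis members. Slc16a3, the lactate exporter MCT4, was at 82.8, 74.8 and 79.5 FPKM in wild type and 20.3, 26.1 and 24.1 in knockout, 3.36-fold lower (-1.71 ± 0.084, adjusted p = 8.55e-07). Slc16a1, the related transporter MCT1, did not pass and its groups overlapped (14.02 ± 0.476 FPKM against 14.7 ± 1.04, SD, n = 3, with a 95% interval of the log2 fold change from -0.07 to 0.19). Lactate dehydrogenase was lower at both subunits. Ldha, the subunit that favours lactate formation, went from 289 ± 3.75 to 239.7 ± 15.1 FPKM (-0.27 ± 0.047, adjusted p = 0.00112), and Ldhb, the heart-type subunit, from 23.9 ± 1.17 to 13.7 ± 0.853 (-0.76 ± 0.055, adjusted p = 8.11e-06). Of the kinases that switch off pyruvate dehydrogenase, Pdk1 fell from 17.3, 16.1 and 17.6 FPKM to 11.5, 11.4 and 12.02 (-0.51 ± 0.047). Pdk3 was at 6.07, 6.1 and 6.2 FPKM in wild type and 6.8, 6.67 and 6.91 in knockout (0.13 ± 0.043, adjusted p = 0.0268), a small rise whose call was lost with median-of-ratios scaling (0.04, adjusted p = 0.415) and quantile normalization (0.02, adjusted p = 0.703), and without any of wild type replicates 1, 2 and 3 or knockout replicate 3 (adjusted p = 0.0781, 0.0587, 0.0634 and 0.0936), or without both wild type replicate 2 and knockout replicate 1 (0.0581). Its adjusted p ran from 0.00641 to 0.703 over the alternatives.

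Because FPKM is per length, related isozymes were summed, although such sums depend on the gene lengths used. In 9 sets made of members only, which leave out other isozymes of the same families, the share that 1 member held was compared. Slc16a3 held 84.9% ± 1.03 (SD, n = 3) of the summed Slc16a1 and Slc16a3 FPKM in wild type and 61.4% ± 4.64 in knockout, with 56.2% in knockout replicate 1 and 64.9% and 63.3% in the other two. Hk2 held 33.1% ± 0.459 of hexokinase 1 and 2 in wild type and 19.6% ± 0.815 in knockout, while the summed level of these 2 genes was lower by 10.5%. With Hk3 added, the sum was instead higher by 7.81% (49.9 ± 0.644 FPKM in wild type and 53.8 ± 1.09 in knockout, exact permutation p = 0.1), and the Hk2 share went from 28.8% to 14.2%. Pfkl held 70.2% ± 1.18 of phosphofructokinase 1 in wild type and 56.98% ± 1.9 in knockout. The 3 phosphofructokinase genes together went from 98.2 ± 4.09 to 64.7 ± 1.4 FPKM. Pfkfb3 held 61.98% ± 2.57 and 46.5% ± 3.5 of the summed Pfkfb2, Pfkfb3 and Pfkfb4 FPKM. Pdk1 held 73.5% ± 0.876 and 63.2% ± 0.323 of Pdk1 and Pdk3, but its share turned direction, from 31.1% ± 1.95 to 42.2% ± 0.704, when Pdk2 and Pdk4 were added, since Pdk4 was the most abundant of the 4 in wild type and fell further than Pdk1. Where 1 gene dominated, shares moved little: Aldoa went from 99.8% to 98.8%, Eno1 from 99.9% to 99.7%, Slc2a1 from 95.7% to 97.96% and Ldha from 92.4% to 94.6%. With other listed isozymes, the direction turned for Slc2a1 (88.3% to 84.2%) and for Eno1 (99.4% to 99.5%, where the groups then overlapped). These wider families were chosen after the data were seen. The groups did not overlap in any of the 9 sets, and the exact permutation p was 0.1 for each (two-sided, adjusted p = 0.1 over the 9), the smallest that 3 against 3 libraries can give, so this design cannot reach 0.05. Single genes often separated too, since the groups did not overlap for 73.1% of all genes tested. Summed over all 26 members, glycolysis FPKM was 3749 ± 77.7 in wild type and 3157 ± 179 in knockout, 15.8% lower, with knockout replicate 1 lowest (2960). This sum is a description and not a test, and its largest parts were Eno1, Pgk1, Aldoa and Tpi1.

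**Figure D3:**
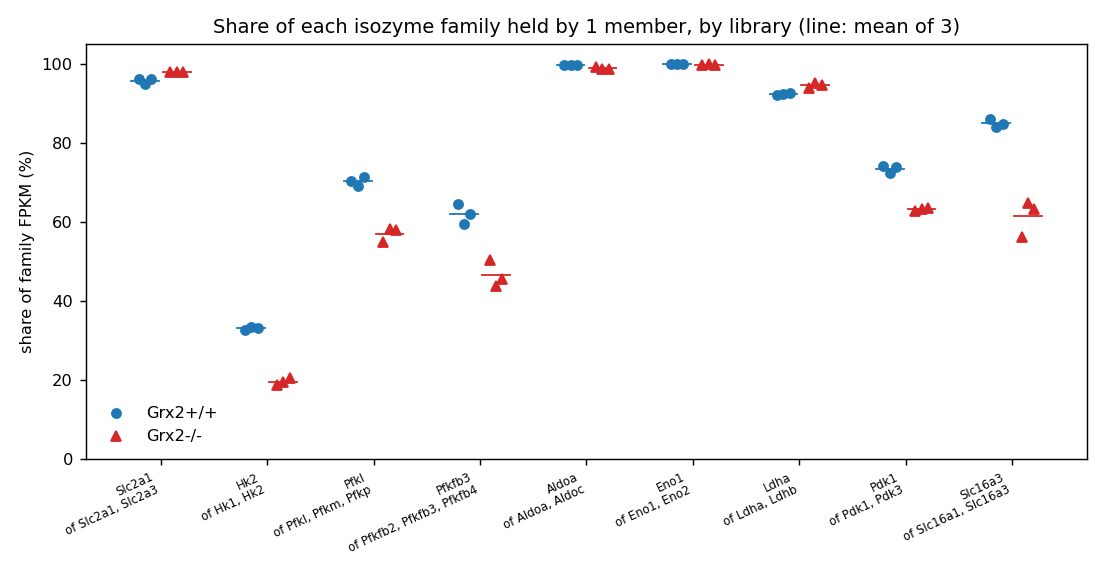
Share of the set's summed FPKM (y axis, percent) held by 1 member in each of 9 sets of isozymes made of members only (x axis) in each wild type library (circles) and knockout library (triangles), with a line at each mean. The share of Slc16a3 dropped from 84.9% to 61.4%, and those of Hk2, Pfkl, Pfkfb3 and Pdk1 are also lower (that of Pdk1 is higher once Pdk2 and Pdk4 are added), while the shares of Aldoa, Eno1, Slc2a1 and Ldha lie above 90% in all libraries (those of Slc2a1 and Eno1 turn direction with other listed isozymes added).

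Both HIF alpha subunits and both prolyl hydroxylases among the members were lower in knockout, whereas other oxygen sensors rose, as given below for Egln2 and Hif1an. Epas1, which encodes HIF-2α and is strong in endothelial and stromal cells, was at 8.46, 7.19 and 7.93 FPKM in wild type and 1.25, 1.11 and 1.29 in knockout, 6.47-fold lower (-1.998 ± 0.068, adjusted p = 1.4e-07), and 1.13% of all genes tested had a lower log2 fold change. The summed endothelial markers were lower too. Their sums were 18.3, 15.3 and 17.5 FPKM in wild type replicates 1, 2 and 3 and 0.982, 1.09 and 0.938 FPKM in knockout. Most of each knockout sum was Tek (0.555, 0.647 and 0.625 FPKM), which was higher in knockout than in wild type (0.284, 0.252 and 0.26). The part of endothelial cells in the result was not tested. Hif1a, which encodes HIF-1α, was at 94.2, 94.5 and 94.8 FPKM in wild type and 58.8, 63.8 and 63.3 in knockout (-0.60 ± 0.038, adjusted p = 3.49e-06). Epas1 was at 0.0761 to 0.0898 of the Hif1a level in wild type libraries and at 0.0174 to 0.0212 in knockout libraries. HIF activity is set mainly by protein stability, which these data do not measure. Egln1, the main prolyl hydroxylase PHD2, fell from 33.8, 31.1 and 32.7 FPKM to 22.7, 23.7 and 23.8 (-0.46 ± 0.042, adjusted p = 2.98e-05). Egln3, the strongly hypoxia-inducible PHD3, fell from 8.4, 8.45 and 7.85 FPKM to 3.18, 3.36 and 3.38 (-1.10 ± 0.051, adjusted p = 6.22e-07). No library of 1 genotype reached the range of the other for any of the 4.

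Other HIF targets fell at 7 of 8 members, and 3 of them by at least 1 on the log2 scale, a size of fall that 3.54% of all genes tested reached. Bnip3, a mitophagy receptor of the outer mitochondrial membrane, was at 146, 116 and 133.5 FPKM in wild type and 40.3, 41.4 and 41.1 in knockout, 3.22-fold lower (-1.66 ± 0.074, adjusted p = 5.2e-07). Its window holds the most HIF cores of those shown. Windows not shown held as many places or more in Ldha (5) and in Hk1, Pdk3, Pfkp and Slc16a1 (4 each). The log2 fold changes of those genes lay from -0.27 to 0.13. Ak4, a mitochondrial adenylate kinase, fell from 8.22, 7.42 and 8.33 FPKM to 3.43, 2.93 and 2.89 (-1.14 ± 0.07, adjusted p = 3.02e-06). Ndrg1, a stress-responsive cytoplasmic protein, fell from 35.4, 29.6 and 35.1 FPKM to 15.9, 15.1 and 15.95 (-1.04 ± 0.069). Wild type replicate 2 was the lowest wild type library for Bnip3, Ak4 and Ndrg1, and it still stood well above every knockout library. Mxi1, an antagonist of MYC, fell from 9.96 ± 0.357 to 4.6 ± 0.246 FPKM (-0.97 ± 0.052), Higd1a, a small mitochondrial protein of the respiratory chain, from 36.7 ± 1.24 to 24.7 ± 2.08 (-0.55 ± 0.06) and Kdm3a, a histone H3 lysine 9 demethylase, from 7.99 ± 0.0888 to 6.56 ± 0.0946 (-0.25 ± 0.042). Ankrd37, an ankyrin repeat protein, was the lowest in level, at 1.46, 1.57 and 1.27 FPKM in wild type and 0.948, 1.19 and 0.93 in knockout (-0.27 ± 0.077, adjusted p = 0.0148). Its call was lost without knockout replicate 3 (adjusted p = 0.0608) and without both wild type replicate 2 and knockout replicate 1 (0.0695), within a range of 0.00388 to 0.0695. Its exons overlap those of Ufsp2, at 29.5 and 24.4 FPKM, on the opposite strand.

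The exception was Adm, the gene of the vasodilator peptide adrenomedullin and a textbook hypoxia target. It was at 22.6, 24.7 and 20.6 FPKM in wild type and 97.4, 89.0 and 92.01 in knockout, 4.10-fold higher (1.99 ± 0.064, adjusted p = 1.08e-07). Every knockout library stood above 3 times the highest wild type library. Of all genes tested, 1.44% had a higher log2 fold change, and 6.49% rose by at least 1 on the log2 scale. Adm and Bnip3, both with HIF cores in their windows, went in opposite directions.

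**Figure D4:**
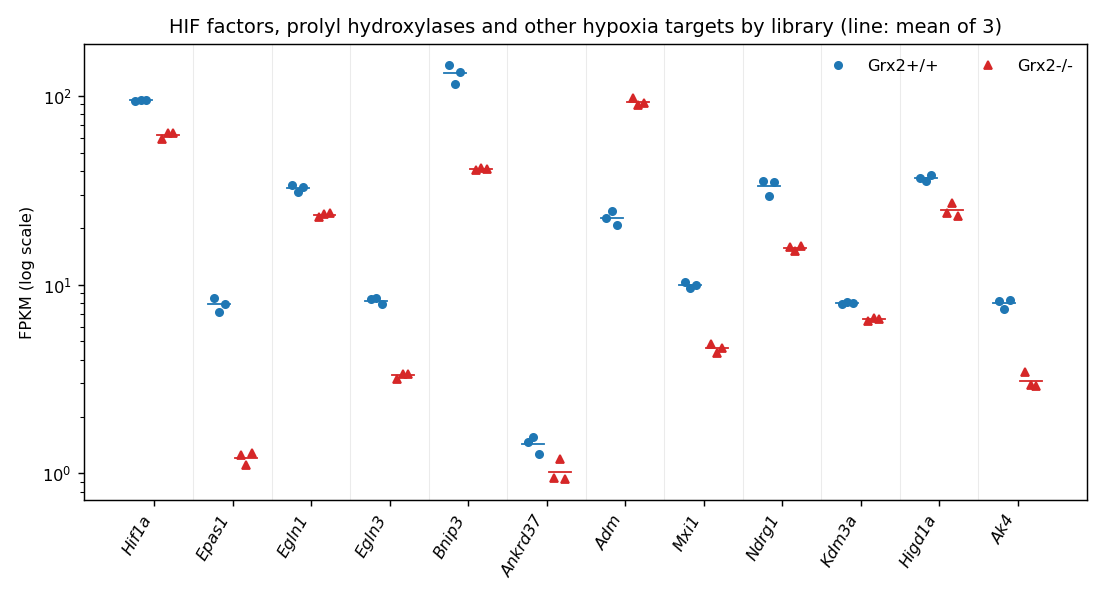
FPKM (y axis, log scale) of the 4 HIF genes and the 8 other hypoxia targets (x axis) in each wild type library (circles) and knockout library (triangles), with a line at each mean. All genes but Adm lie lower in knockout, and no gene's groups overlap.

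Genes of the same pathways outside the 38 members gave a mixed picture in glycolysis and a mostly lower one among HIF targets. Of 15 tested further glycolysis and gluconeogenesis genes, 5 rose (33.3%) and 7 fell (46.7%), beside 42.7% and 24.6% of all genes tested. Their median was -0.07, beside 0.09 over all genes. Pgam2, the muscle-type phosphoglycerate mutase, went from 13.2 ± 0.286 to 0.756 ± 0.0863 FPKM (-3.02 ± 0.056). It was at 13.2, 12.9 and 13.5 FPKM in wild type libraries whose muscle marker sums were 5.37, 46.2 and 17.3 FPKM. The part of muscle cells in its fall was not tested. Pck2, the mitochondrial phosphoenolpyruvate carboxykinase, went from 71.1 to 43.9 FPKM and Pgm1, a phosphoglucomutase, from 42.9 to 26.96 FPKM. Hk3, a hexokinase of myeloid cells, rose from 6.41 ± 0.883 to 14.9 ± 0.84 FPKM (1.10 ± 0.084), in libraries where macrophage markers were higher and neutrophil markers lower. At the entry of pyruvate into mitochondria, 5 of 13 genes rose (38.5%) and 2 fell (15.4%), beside 42.7% and 24.6% of all genes tested, and the median of 0.10 was near the 0.09 of all genes. Pdk4, the kinase that joins Pdk1 in holding pyruvate dehydrogenase inactive, fell from 27.1 ± 1.53 to 4.55 ± 0.58 FPKM (-2.34 ± 0.079, adjusted p = 1.35e-07), whereas the opposing phosphatase Pdp1 rose from 3.07 ± 0.328 to 13.2 ± 0.473 (1.81 ± 0.067, adjusted p = 2.04e-07). Pcx, pyruvate carboxylase, rose from 2.68 to 6.86 FPKM and Pdpr, a regulatory subunit of the phosphatase, from 5.93 to 7.85 FPKM.

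Of 16 tested genes of the HIF complex and its degradation, 7 rose (43.75%) and 4 fell (25%), near the 42.7% and 24.6% of all genes tested, with a median of 0.04. The sensors Egln2, the prolyl hydroxylase PHD1, and Hif1an, the asparaginyl hydroxylase FIH, rose from 17.1 to 20.3 FPKM (0.23 ± 0.038) and from 7.86 to 9.64 FPKM (0.26 ± 0.051), both named after their values were seen. The call of Egln2 was lost with quantile normalization (0.10, adjusted p = 0.054, the highest over its alternatives). Arnt2, a partner of the alpha subunits, rose from 1.25 to 2.37 FPKM (0.58 ± 0.064), and Rbx1, of the ubiquitin ligase that degrades them, from 50.7 to 63.5 FPKM (0.32 ± 0.041). Eloc, of the same ligase, fell from 31.8 to 22.9 FPKM (-0.46 ± 0.049), as did Siah2, which marks prolyl hydroxylases for degradation (8.08 to 6.01 FPKM). Of 42 tested further HIF targets, 24 fell (57.1%), 8 rose (19.05%) and 10 did not pass, beside 24.6% fallen and 42.7% risen of all genes tested. Their median was -0.45, beside 0.09 over all genes. Those with the smallest p were Loxl2, a collagen crosslinker (from 209.8 to 23.5 FPKM), Edn1, endothelin 1 (6.04 to 0.358), Nt5e, the ectonucleotidase CD73 (10.8 to 2.1), and Igfbp3, an IGF-binding protein, which rose (3.55 to 39.2). Vegfa and Car9, named after their values were seen, went opposite ways: Vegfa, the angiogenic growth factor, fell from 51.4 to 17.7 FPKM (-1.49 ± 0.061), and Car9, a membrane carbonic anhydrase, rose from 1.59 to 13.5 FPKM (2.49 ± 0.099). Cell cycle genes were higher in the same libraries, with 22 of 25 risen (88%, beside 42.7% of all genes tested) and 0 fallen (median 0.62), among them Pcna (98.3 to 239.8 FPKM), Mcm3, Mcm4 and Mcm6, and their part in the changes of glycolysis genes was not tested.

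**Figure D5:**
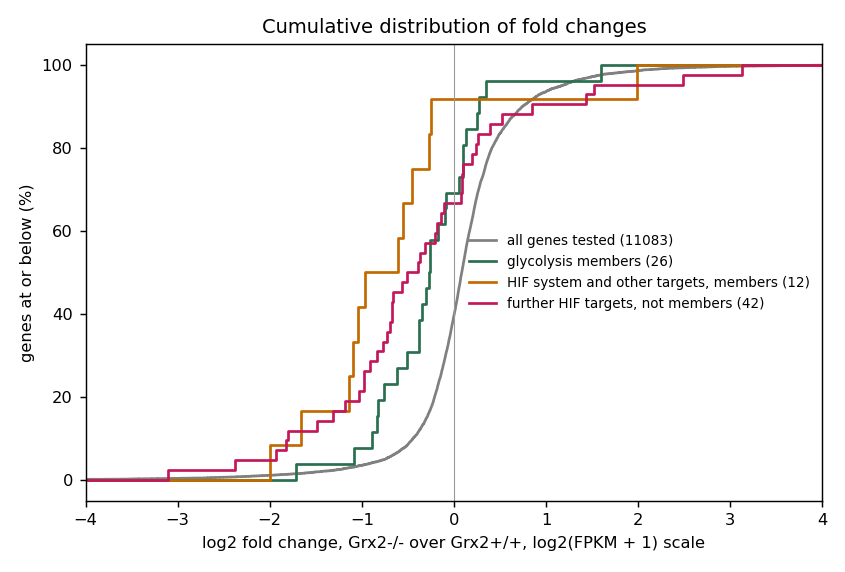
Cumulative share of genes (y axis, percent) at or below each log2 fold change (x axis, knockout over wild type, log2(FPKM + 1) scale) for all 11083 genes tested, the 26 glycolysis members, the 12 HIF genes and other targets among the members, and 42 further HIF targets that are not members. The medians of the glycolysis members (-0.27) and the further targets (-0.45) lie left of that of all genes (0.09), and 11 of the 12 HIF genes and other targets lie below 0.

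Within each genotype, 1 library was the lowest for many glycolysis members. Knockout replicate 1 was the lowest knockout library for 16 of 26 and the highest for 8. Wild type replicate 2 was the lowest wild type library for 16 of 26 and the highest for 7. Whether genes outside the members shared this pattern was not tested. Relative to the wild type mean, the median log2 difference of the glycolysis members was -0.37, -0.19 and -0.25 in knockout replicates 1 to 3 and between -0.02 and 0.02 in the wild type libraries. For the other targets the knockout libraries lay closer together (-0.75, -0.73 and -0.81). Without both wild type replicate 2 and knockout replicate 1, 16 glycolysis members still fell and 3 rose (median -0.25), all 4 HIF genes fell, and 6 other targets fell and 1 rose. Some levels are uncertain in themselves. Reads that fit several places can be lost or split for genes with many processed copies, such as Gapdh, and Eno1b, a near-identical copy of Eno1, was listed at 10.3 to 12.3 FPKM in all libraries. In GENCODE M21, exons of Gapdh, Pfkfb2, Pfkm, Pfkp and Tpi1 overlap those of Iffo1, Yod1, Senp1, Pitrm1 and Spsb2 on the opposite strand, and without a stated strand setting such reads cannot be told apart. Pitrm1 went from 40.1 to 26.7 FPKM beside the small fall of Pfkp.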

How the data were processed

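Per the labels' protocols, TRIzol was used for total RNA and the VAHTS Universal V6 kit for the libraries. The authors deposited 1 table of FPKM values for 22984 genes, with 1 column for each of 6 libraries. HISAT2, HTSeq, R 3.2.0 and build GRCm39 are named in the submitters' processing notes; annotation, filters and strand setting are not stated in the sources used here. Libraries were grouped by genotype from the labels. A filter on the mean FPKM (1 or more) kept 11083 genes, whose log2(FPKM + 1) values went into limma 3.58.1 under R 4.3.3 (lmFit, eBayes with trend), two-sided, with Benjamini-Hochberg adjustment over all genes and a threshold of 0.05. Whole reads were worked back for 22982 genes (99.99%, within 1e-06 reads) and gave the depth; at these depths counting error is small for most members. Shares within sets of isozymes were compared with an exact permutation test, also with other listed isozymes added. Members, lists, tests and alternatives were chosen with earlier results of these data known. Named genes are Glrx2, all members and, of each further list, up to 4 called genes with the smallest p; genes outside this rule are marked as such. Promoter windows came from RefSeq (GRCm38.p6), another build than the authors', so no other coordinates are given. Some listed genes are not reported by name here. Figures were drawn with matplotlib 3.10.9.

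The test was tried on simulated reads with known changes before use. The alternatives were a pseudocount of 0.1, no filter or a stricter mean FPKM (5), scaling by median of ratios or by quantiles, no trend, the replicate number as a block, voom on the recovered reads, each library left out, and both libraries that stood furthest from their group left out together.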

Additional observations from a re-analysis of the deposited data

How the results depend on the processing

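Over 15 alternatives, 30 of the 38 members kept their direction and their side of the threshold wherever they were tested, and the other 8 were Hk1, Gpi1, Pfkm, Aldoa, Eno2, Pdk3, Slc16a1 and Ankrd37. With quantile normalization Hk1 had -0.0338, Pfkm -0.0163 and Slc16a1 -0.0858, against signs above 0 as deposited, and Slc16a1 had -0.0368 with median-of-ratios scaling; the median of all genes moved down under these scalings. Gpi1 passed with median-of-ratios scaling (-0.18), quantile normalization (-0.13) and without knockout replicate 2 (-0.11), and Aldoa passed with median-of-ratios scaling (-0.20) and without knockout replicate 2 (-0.14). The number of glycolysis members higher in knockout, 6 as reported, was 3 with a mean FPKM of at least 5 (21 members tested), with quantile normalization and without both libraries that stand apart, and 3 (without wild type replicate 2) to 6 with 1 library left out; 14 to 18 members were lower in all alternatives. The median of the glycolysis members was -0.3693 with median-of-ratios scaling. That of the HIF genes was -0.6019 with a mean FPKM of at least 5 (3 genes tested, without Epas1), -0.9436 with median-of-ratios scaling, -0.9502 with a pseudocount of 0.1, -0.9714 with quantile normalization and -0.963 with voom. That of the other targets was -0.9701 (7 genes tested), -0.8554, -0.8277, -0.8815 and -0.8309 under the same settings. With 1 library left out the medians ran from -0.3093 to -0.2197, -0.8667 to -0.8221 and -0.7863 to -0.7407. The replicate block gave 4771 genes higher and 2791 lower and left the members' counts at 16 and 6, 4 and 0, and 7 and 1; deviations of same-numbered libraries correlated at 0.107, 0.124 and 0.02, so the numbers were not taken as pairs. Of 27 other named genes that were followed over the alternatives, 26 kept their call in every alternative in which they were tested, and Egln2 lost it with quantile normalization. Among whole reads the Slc2a1 share differed by 4.57 points and that of Ldha by 0.592, against 2.25 and 2.19 by FPKM. With other listed isozymes added to the sets, an alternative chosen after seeing the data, the difference of the share turned to -4.131 points for Slc2a1, 0.15 for Eno1 and 11.104 for Pdk1, and the groups did not overlap in 8 of 9. Small differences near the threshold rest on 3 libraries per group, with no stated origin of the replicates.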
